A study of Mus musculus with 12 samples.

Results

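The KO label effect that cultures and tumors of the 4T1 line had in common was examined in all 12 libraries of the series. Culture and tumor counts were joined by Ensembl gene ID, and the label was tested in an additive model with the system, culture or tumor, as a block, so that 6 KO-labelled libraries stood against 6 VC-labelled ones. A gene was a member where every KO library lay on the same side of every VC library in culture and again, in the same direction, in tumors. Of 39017 genes in the tables, 18419 passed the filter on low counts, and 644 of those were members. Members of that kind were 3.5% of the genes tested, with 258 higher in KO (1.4%) and 386 lower (2.1%). That split depended on the scaling of libraries, and with RLE scaling 302 were higher and 311 lower. The model called 396 genes (2.15%) at an adjusted p under 0.05 in edgeR with Benjamini-Hochberg adjustment, 149 higher (0.809%) and 247 lower (1.34%). The 2 criteria met in 243 genes (1.32%), 87 higher (0.472%) and 156 lower (0.847%), and these are called members below. Separation and model read the same libraries, so the overlap of both is not independent evidence. Complete separation in groups this small also arises without a label effect, so membership by itself does not show one in tumors. How many of the 644 would arise that way was not tested.

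4T1 is a BALB/c mammary carcinoma line that forms tumors and metastases in BALB/c mice and stands as a model of triple-negative breast cancer. Per the labels, POGZ was ablated in the KO samples, and the VC samples carry the genotype POGZ WT; the labels do not spell out VC. Cultures grew in DMEM with 10% FBS to 75% confluency, with 3 KO and 3 VC libraries and no other treatment named. Tumors came from 50 k cells put into a mammary fat pad; the hosts, BALB/c mice, were 8 weeks old, and tumors were taken after 28 days, again 3 KO and 3 VC. The labels do not give the ablated site, whether a cell line is 1 clone, whether the 3 cultures of a group were separate cultures, or which cells went into which mouse. Any p-value therefore rests on the spread between these samples, which may be technical in culture. In the additive model, 1 spread per gene pools cultures and tumors and also holds any difference of the label effect between the systems. If the KO line was 1 clone, whatever else distinguishes that clone from the VC line is part of the label effect and cannot be told apart from the loss of POGZ.

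POGZ is a zinc finger protein with a domain derived from a pogo transposase. It binds HP1 proteins, which hold methylated histone H3 in heterochromatin, and takes part in chromosome segregation and gene silencing. The RNA of a tumor comes from carcinoma cells and from host cells such as macrophages, fibroblasts and vessels, whereas a culture holds the carcinoma cells by themselves. In a tumor library, fewer cells of a type and less RNA per cell cannot be told apart.

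The mean RNA level of Pogz was not lower in KO-labelled libraries in either system. Its level, in CPM (counts scaled by library totals with TMM factors), was 50.7, 51.2 and 48.0 in VC cultures and 67.7, 66.7 and 68.3 in KO cultures, without overlap and higher in KO (log2 fold change 0.45, adjusted p = 1.47e-06 in the edgeR fit of cultures with Benjamini-Hochberg adjustment). In tumors it was 85.9, 104 and 113 in VC and 135, 105 and 86.2 in KO, and the groups overlapped. The shared log2 fold change of Pogz, KO over VC, was 0.27 ± 0.11 (SE), with an adjusted p of 0.209 in edgeR's quasi-likelihood test with Benjamini-Hochberg adjustment. It was called higher in 2 of the 24 refits, without tumors VC_8451 and KO_8459 (0.42, adjusted p = 0.0155) and by limma-voom with quality weights (0.39, adjusted p = 0.000203). The quality weights were larger in every culture than in any tumor. Over the 24 refits the value ran from 0.044 to 0.42. Pogz lies on chromosome 3, where the median log2 fold change of genes was itself 0.33 in culture and 0.22 in the shared fit. Counts over the whole gene do not show whether a protein is made. The words KO and VC below refer to labels of libraries.

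Depth and spread differed between the systems. Total counts ran from 14724518 to 21863223 in cultures, from 4712001 to 8338828 in VC tumors and from 12128993 to 13043831 in KO tumors, so that depth moved with the label in tumors. The biological coefficient of variation was 0.0641 in VC cultures, 0.0366 in KO cultures, 0.246 in VC tumors and 0.324 in KO tumors. The cultures fitted by themselves gave 7543 called genes (41%), and the tumors by themselves gave 0 in edgeR (0%), with 1026 at an unadjusted p under 0.05 (5.57%) and 68 called by DESeq2. Complete separation of KO from VC was met by 49.6% of genes in culture and by 10.5% in tumors. In groups of this size, the order of libraries without any label effect gives complete separation in a share close to that of tumors. The 5.57% at an unadjusted p under 0.05 was likewise close to what that threshold passes without an effect. Separation in tumors therefore does not by itself show a label effect there. The summed CPM of 11 B and plasma cell markers was 5128 in tumor KO_8459 and between 12.5 and 165 in the other 5 tumors. The 11 markers of 4T1 carcinoma summed to between 4218 and 4619 in cultures and between 2847 and 3722 in tumors, with none at 0 in any group.

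Among the called members, 5 genes named by rule were called in the same direction in each of the 24 refits that changed the scaling, filter, tool, covariates or set of libraries: Heg1 rose, and Padi3, Hs3st1, Entpd3 and Tjp3 fell. The same was true of Cdk18, Uggt1, Zfp451, Ano9, Ikbkb and Poc1b, all lower, which were singled out after their values were seen. The 250 bases before the RefSeq start of the 5 genes are shown because these are the members with the steadiest calls (RefSeq, GRCm38.p6, 5′ to 3′ on the gene's strand). Heg1 is at chr16:33684216-33684465 (plus strand), Padi3 at chr4:140810649-140810898 (minus), Hs3st1 at chr5:39644632-39644881 (minus), Entpd3 at chr9:120539568-120539817 (plus), and the first of 2 Tjp3 starts at chr10:81291582-81291831 (minus). Capitals mark matches to the motifs searched.
Heg1: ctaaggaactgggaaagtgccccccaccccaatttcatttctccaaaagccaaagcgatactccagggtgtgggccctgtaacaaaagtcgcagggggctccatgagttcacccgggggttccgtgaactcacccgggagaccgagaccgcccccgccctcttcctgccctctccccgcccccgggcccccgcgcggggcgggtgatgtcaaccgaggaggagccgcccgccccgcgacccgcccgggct
Padi3: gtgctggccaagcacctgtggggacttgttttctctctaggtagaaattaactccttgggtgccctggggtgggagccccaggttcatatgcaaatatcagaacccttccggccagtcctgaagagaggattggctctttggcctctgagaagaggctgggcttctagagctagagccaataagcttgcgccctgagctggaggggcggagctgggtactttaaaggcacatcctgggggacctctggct
Hs3st1: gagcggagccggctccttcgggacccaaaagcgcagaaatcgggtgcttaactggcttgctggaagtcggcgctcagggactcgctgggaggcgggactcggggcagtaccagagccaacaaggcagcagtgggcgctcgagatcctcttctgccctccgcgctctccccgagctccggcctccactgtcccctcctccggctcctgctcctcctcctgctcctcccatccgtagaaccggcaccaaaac
Entpd3: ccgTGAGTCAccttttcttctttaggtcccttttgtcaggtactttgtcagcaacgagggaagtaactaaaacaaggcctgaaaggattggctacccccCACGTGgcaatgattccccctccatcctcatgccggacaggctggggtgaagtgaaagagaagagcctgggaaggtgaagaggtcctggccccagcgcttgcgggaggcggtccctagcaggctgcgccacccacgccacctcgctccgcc
Tjp3: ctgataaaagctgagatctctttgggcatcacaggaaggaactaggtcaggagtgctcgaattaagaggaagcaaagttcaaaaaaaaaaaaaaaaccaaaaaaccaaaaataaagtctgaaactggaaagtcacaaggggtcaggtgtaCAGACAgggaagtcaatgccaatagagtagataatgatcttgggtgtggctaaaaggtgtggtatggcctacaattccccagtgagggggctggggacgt
The motifs, read on both strands, were AP-1 (TGANTCA), the E-box CACGTG, the SMAD sequence CAGACA, TEAD (GGAATG), CRE (TGACGTCA) and E2F (TTTCCCGC), and the interferon-stimulated response element ISRE. The Entpd3 window held 1 AP-1 match and 1 E-box, and the Tjp3 window shown held CAGACA. The window of the second Tjp3 start, not shown, held 1 E-box and 1 match to CAGACA. The windows of Heg1, Padi3 and Hs3st1 held none of the 7. Of 32851 windows of this length in the RefSeq table, 6.75% held the AP-1 motif, 6.02% the E-box and 17.1% CAGACA. A match is a run of letters and shows no binding. Of 644 members, 159 of the 258 higher and 249 of the 386 lower had a window in the table, under 80% of each, so a comparison of motif shares between members and other genes is void and is not given.

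Heg1, a transmembrane receptor of endothelial and other cells that joins the CCM complex at junctions, was at 20.6, 24.7 and 22 CPM in VC cultures and at 65.8, 68.2 and 60.7 in KO cultures. In tumors it was at 67.4, 44.0 and 68.4 in VC and at 122, 111 and 123 in KO. The KO groups lay above the VC groups in both systems with a wide gap. The shared log2 fold change was 1.26 ± 0.13 (SE), 1.55 in culture and 0.99 in tumors, with an adjusted p of 0.0014 in edgeR with Benjamini-Hochberg adjustment. Egfr, the receptor tyrosine kinase for EGF and TGF-alpha, was at 1.63, 1.58 and 1.4 CPM in VC cultures against 9.65, 9.83 and 10.4 in KO cultures. Tumors had 19.1, 27.2 and 23.1 in VC and 45.5, 52.8 and 48.4 in KO. Each KO library was again above each VC library, and the rise was larger in culture. The mean of VC tumors was 23.1 CPM and that of VC cultures 1.54, and the part of host cells in the tumor values was not tested. The shared log2 fold change of Egfr was 1.77 ± 0.25 (adjusted p = 0.00827, edgeR), and its tumor-minus-culture difference was -1.62 with an adjusted p of 0.00249 for the interaction. An antisense gene, Egfros, overlaps Egfr, and Gm15657 overlaps Heg1; whether reads were counted by strand is not given in the sources used here.

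S100a4, a small calcium-binding protein long studied in metastasis, rose more in tumors than in culture. Its VC cultures had 36.2, 28.8 and 30.7 CPM and its KO cultures 49.0, 55.3 and 51.8. VC tumors had 84.2, 78.0 and 85.7, and KO tumors 287, 308 and 184. All 6 KO libraries lay above the VC libraries of their system, with log2 fold changes of 0.72 in culture and 1.66 in tumors. The difference between the 2 was not called (adjusted p = 0.0705, edgeR interaction with Benjamini-Hochberg adjustment), and the shared value was 1.18 ± 0.18 (adjusted p = 0.00944). Slc40a1, ferroportin, the exporter of iron from cells, had 5.79, 6.39 and 6.90 CPM in VC cultures and 17.9, 16.9 and 16.2 in KO cultures. It had 1.27, 2.65 and 3.72 in VC tumors and 5.15, 13 and 17.7 in KO tumors. The spread between KO tumors was wide, and the shared log2 fold change was 1.74 ± 0.29 (adjusted p = 0.012, edgeR). Ubqln2, a ubiquitin-like shuttle protein for the proteasome, had the largest shared rise of the named members, 2.45 ± 0.55 (adjusted p = 0.0402, edgeR). That rise was mostly one of culture, where VC had 1.86, 1.27 and 1.51 CPM and KO 28.2, 30.8 and 27.6. In tumors VC had 21.6, 10.6 and 7.57 and KO 22.9, 25.6 and 23.2, so the groups were apart by a narrow margin.

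**Figure D1:**
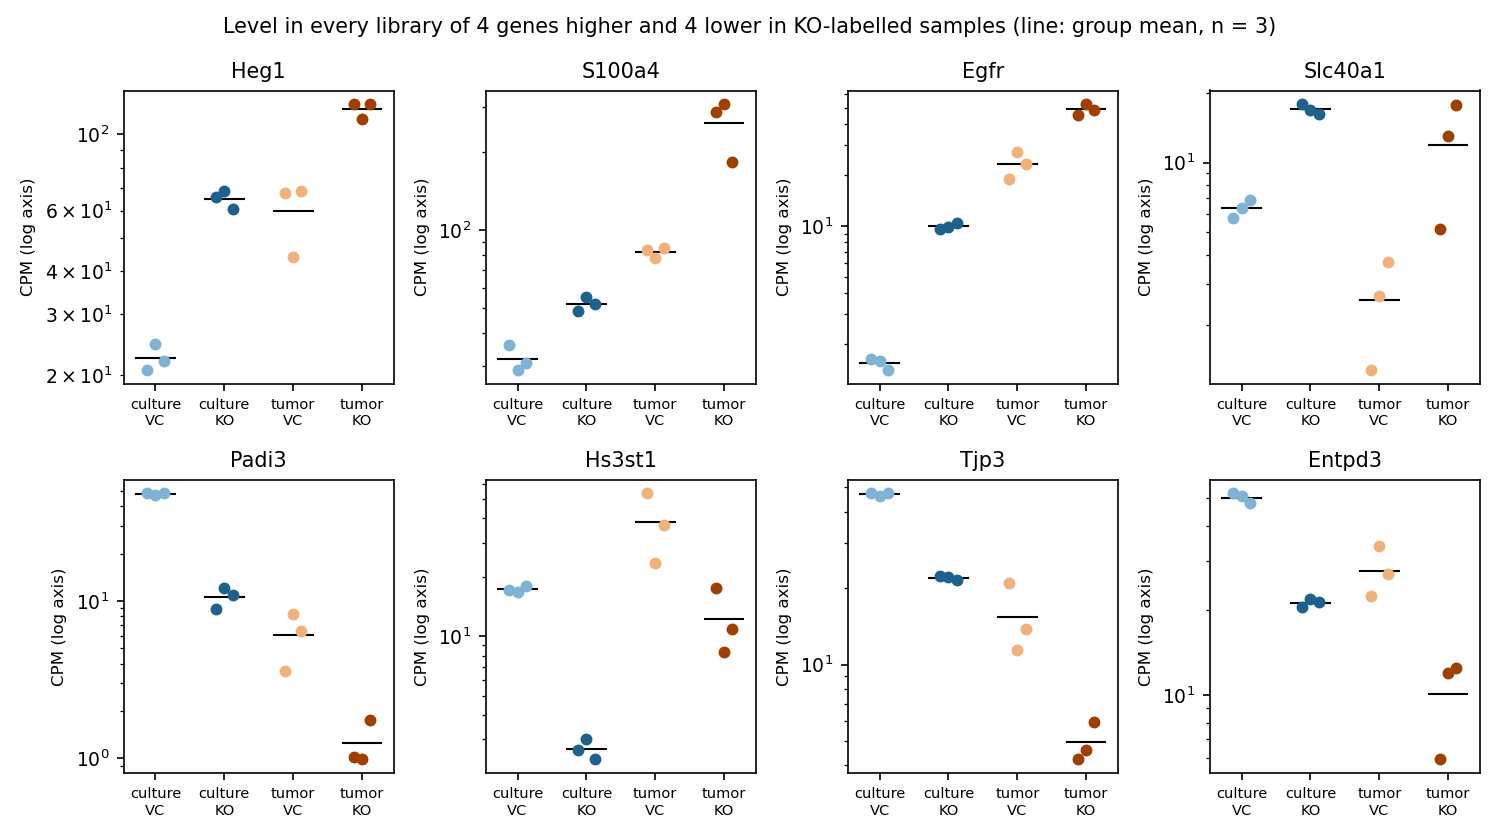
Each panel plots the level of 1 gene in CPM on a log axis for the 12 libraries, by group; points are libraries and the black line is the mean of 3. KO points lie above VC points in both systems for Heg1, S100a4, Egfr and Slc40a1 and below them for Padi3, Hs3st1, Tjp3 and Entpd3; Padi3, for example, falls from 48.1 to 10.7 CPM on average in culture and from 6.13 to 1.25 in tumors.

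The other 7 of the 12 largest rises were smaller or rested on fewer counts. Coro2b, a coronin that binds actin, went from 2.21 to 2.25 CPM in VC cultures to 7.65 to 8.21 in KO cultures, and from 0.826 to 1.69 to between 2.03 and 5.02 in tumors. Cpxm1, a secreted carboxypeptidase-like protein, and Ccl9, a chemokine of myeloid cells, were low in cultures. Cpxm1 had 32.7, 28.5 and 29.3 CPM in VC tumors and 41.3, 129 and 100 in KO tumors, but between 0.264 and 0.736 in all cultures. Its highest VC culture had 0.506 CPM and its lowest KO culture 0.546. In the edgeR fit of cultures Cpxm1 was not called (log2 fold change 0.71, adjusted p = 0.162), so its shared rise rests on tumors. Ccl9 had 25.2, 28.4 and 29.5 in VC tumors and 30.9, 47.9 and 119 in KO tumors, and between 0.269 and 1.27 in cultures. For both genes 1 KO tumor, KO_8454, lay close to the VC tumors. Summed fibroblast markers ran from 2837 to 4422 CPM in VC tumors and from 4092 to 7364 in KO tumors, and those of macrophages and monocytes from 1421 to 2415 and from 1807 to 3557. Both ranges overlapped, all markers of both lists had counts in both tumor groups, and their part in the Cpxm1 and Ccl9 values was not tested. Ttc30b, a subunit of the intraflagellar transport machinery of cilia, rose by 1.19 ± 0.26 on the log2 scale (adjusted p = 0.0349, edgeR), from a level under 1 CPM in VC cultures; Ttc30a copies are close in sequence, so reads may have been split. Phyhd1, a dioxygenase, rose by 1.11 ± 0.22 and Ccdc109b, now Mcub, an inhibitory subunit of the mitochondrial calcium uniporter, by 0.92 ± 0.18 (adjusted p of 0.0232 and 0.0228, edgeR). S100a14 rose by 0.87 ± 0.16 (adjusted p = 0.0185, edgeR).

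Padi3, a peptidylarginine deiminase that converts arginine in proteins to citrulline, had the smallest p of the named members. Its VC cultures had 48.6, 47.2 and 48.4 CPM and its KO cultures 8.90, 12.1 and 11. VC tumors had 3.61, 8.31 and 6.47, and KO tumors 1.01, 0.985 and 1.76. The fall was -2.16 in culture and -2.29 in tumors on the log2 scale, with no overlap in either system, and the shared value was -2.23 ± 0.18 (adjusted p = 0.000397, edgeR). Its neighbour Padi1, named here for its position, was also a called member, at -0.72 ± 0.10 (adjusted p = 0.0076, edgeR). Hs3st1, which adds the 3-O-sulfate to heparan sulfate, had 17.3, 16.8 and 18.2 CPM in VC cultures and 2.64, 3.01 and 2.37 in KO cultures. In tumors the VC values were 53.7, 23.7 and 37.0 and the KO values 17.6, 8.33 and 11. KO lay below VC throughout, and the shared log2 fold change was -2.14 ± 0.26 (adjusted p = 0.00372, edgeR).

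Entpd3, an ectoenzyme that splits ATP and ADP outside the cell, had 52.2, 50.8 and 48.0 CPM in VC cultures and 20.6, 21.9 and 21.5 in KO cultures. Its VC tumors had 22.5, 33.7 and 26.8 and its KO tumors 5.92, 12 and 12.5. Tjp3, the tight junction scaffold ZO-3, had 47.4, 46.1 and 47.3 CPM in VC cultures and 22.4, 22.1 and 21.5 in KO cultures, with 21, 11.4 and 13.8 in VC tumors and 4.23, 4.62 and 5.94 in KO tumors. Both genes were lower in every KO library than in any VC library of the same system. Shared log2 fold changes were -1.34 ± 0.16 for Entpd3 and -1.32 ± 0.15 for Tjp3 (adjusted p of 0.00295 and 0.00273, edgeR). Apba3 overlaps Tjp3 on the other strand.

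Crispld2, a secreted CAP-domain protein, had 6.97, 7.24 and 5.17 CPM in VC cultures and 2.53, 2.07 and 2.50 in KO cultures, and 151, 119 and 57.4 in VC tumors against 20.2, 36.7 and 29.9 in KO tumors. It fell by 1.72 ± 0.24 on the log2 scale (adjusted p = 0.0076, edgeR). Gpr97, an adhesion G protein-coupled receptor, fell by 1.71 ± 0.27 (adjusted p = 0.0112, edgeR), from 10.1 to 10.9 CPM to 1.64 to 1.87 in culture and from 18.2 to 30.3 CPM to 9.55 to 14.8 in tumors. Cntn1, a cell adhesion molecule of neurons, had the largest shared fall of the named members, -2.42 ± 0.43 (adjusted p = 0.0182, edgeR). It had 3.82, 2.75 and 3.13 CPM in VC cultures and 0.172, 0.134 and 0.182 in KO cultures, and 56.4, 96.2 and 41.3 in VC tumors against 5.92, 20.3 and 26.2 in KO tumors. For Cntn1 and Crispld2, VC levels were far higher in tumors than in culture, and the part of host cells there was not tested. Espn, the actin bundler espin, went from 9.81 to 13.3 CPM to 4.08 to 6.01 in culture and from 14.6 to 27 to between 2.35 and 6.95 in tumors, a shared fall of 1.83 ± 0.32. Sema3b, a secreted semaphorin, fell by 1.57 ± 0.29, BC025446 by 1.63 ± 0.34 and Ddah2, a dimethylarginine hydrolase, by 1.28 ± 0.27. The largest adjusted p of these 4 was 0.031 (Ddah2, edgeR). Tns4, a tensin of focal adhesions, was abundant and fell mainly in culture, from 250, 237 and 236 CPM to 52.0, 51.5 and 52.4. In tumors it had 328, 374 and 284 in VC and 266, 238 and 241 in KO, a narrow gap, and the shared log2 fold change was -1.31 ± 0.28 (adjusted p = 0.0325, edgeR). Gm20388 overlaps both Crispld2 and Foxc2 in the annotation, Gm42674 overlaps S100a4, and Nup62 and Il4i1 overlap Atf5, so counts of these genes are less certain.

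The 243 called members were in most cases modest in size. The median log2 fold change of the 87 higher was 0.55 in culture and 0.48 in tumors, and that of the 156 lower was -0.55 and -0.51. Over all 18419 genes tested the medians were 0.00 and 0.02. Past 2-fold were 40 called members in culture, 45 in tumors and 27 in both. The change was larger in tumors than in culture in 105 of them. The interaction of label and system was called for 6 of the 243, against 377 of all genes tested (2.05%): Egfr, Ubqln2, Gpr97 and Tns4, and Lims1 and Med24, which lay outside the rule for named genes and were named after their values were seen. All 6 moved less in tumors than in culture. Of the 243, 225 were protein-coding.

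**Figure D2:**
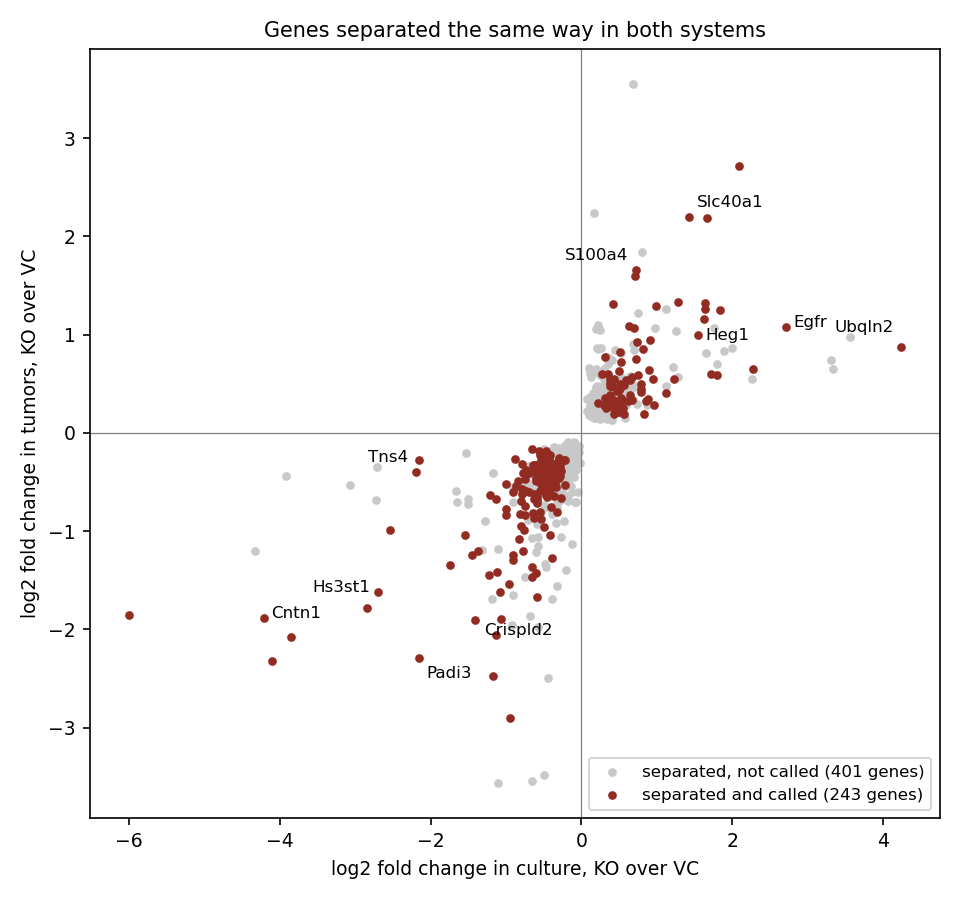
Each point is 1 of the 644 genes separated in the same direction in both systems, with its log2 fold change (KO over VC) in culture on the horizontal axis and in tumors on the vertical axis; the 243 in red were also called by the additive model. The rule confines points to the lower left and upper right, and most lie within 1 unit of 0 on both axes. Cntn1, Hs3st1 and Padi3 lie far to the lower left, and Ubqln2 and Egfr lie far right.

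The margin of the separation rule was thin at its edge. Abcc5 was just inside, with 45.5 CPM in the lowest KO tumor and 45.4 in the highest VC tumor, and so was Asph, with 106 in the highest KO tumor and 107 in the lowest VC tumor. Pgrmc2 was just outside, with 41.3 CPM in the lowest KO tumor and 41.4 in the highest VC tumor, and so was Tenm4, with 91.3 in the highest KO tumor and 91.0 in the lowest VC tumor. Sesn1 and Smim19 were also just inside, and Pdcd4 and Ndufaf4 just outside. These 8 genes were picked from calls of the additive model, so their calls say nothing of the edge. Of its 396 calls, 153 were genes that were not members.

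A further 327 genes (1.78%) were separated in both systems in opposite directions, 160 higher in culture and lower in tumors (0.869%) and 167 the reverse (0.907%). Genes separated in both systems thus went the same way in 644 cases and opposite ways in 327. Marcks, a substrate of protein kinase C that binds actin and membranes, had 75.1, 77.0 and 75.2 CPM in VC cultures and 1.44, 1.61 and 2.41 in KO cultures. In tumors it had 127, 101 and 127 in VC and 140, 148 and 200 in KO. Its tumor-minus-culture log2 difference was 5.81 ± 0.27 (adjusted p = 1.38e-06, edgeR interaction with Benjamini-Hochberg adjustment). Csgalnact1, an enzyme of chondroitin sulfate synthesis, and Pdgfra, a receptor of platelet-derived growth factor, were also lower in KO cultures and higher in KO tumors, with differences of 2.07 ± 0.18 and 1.76 ± 0.18. Pdgfra marks fibroblasts, whose summed markers are given above. Casp12, an inflammatory caspase, and Vwa2, a matrix protein, were higher in KO cultures and lower in KO tumors, with differences of -1.68 ± 0.18 and -4.26 ± 0.48.

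The members were unevenly placed on the chromosomes. Of 1065 genes tested on chromosome 1, 83 were members lower in KO and 4 higher, a share of 7.79% lower against 2.1% over all genes. On chromosome 8, 52 of 929 were lower (5.6%) and 2 higher, and on chromosome 4, 52 of 1227 were lower (4.24%) and 5 higher. On chromosome 3, which carries Pogz, 59 of 853 were higher (6.92%, against 1.4% over all genes) and 2 lower. On chromosome 18, 21 of 442 were higher (4.75%) and 0 lower. The remaining chromosomes held between 0.331% and 3.01% higher and between 0.263% and 3.27% lower members.

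**Figure D3:**
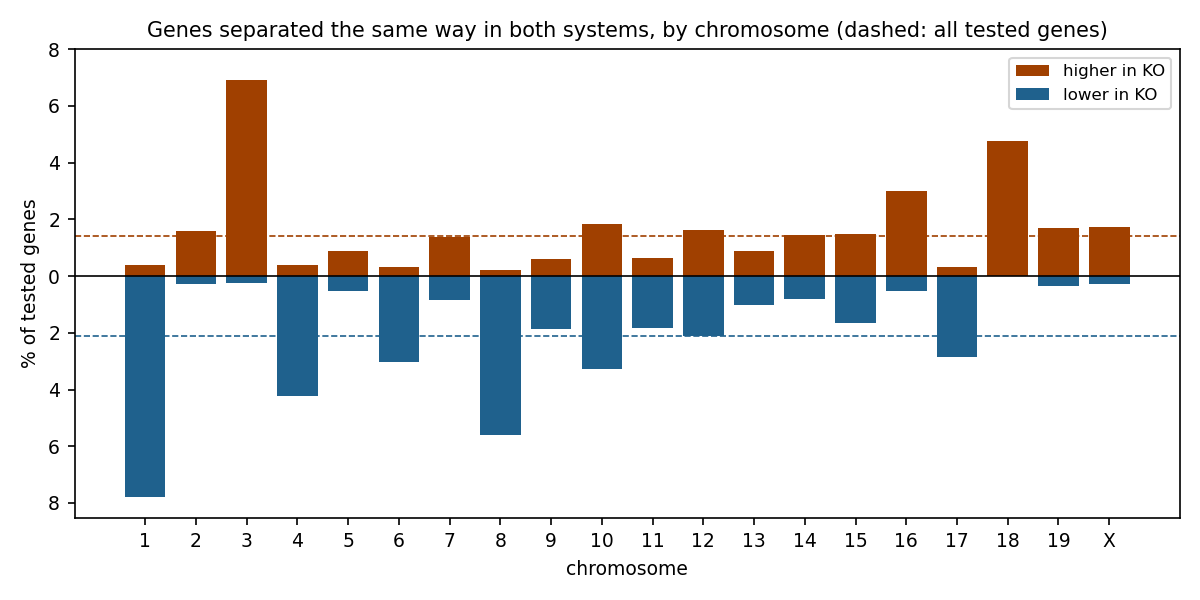
Bars give the share of tested genes on each chromosome that were members, higher in KO (up, orange) or lower in KO (down, blue); dashed lines mark the shares over all 18419 genes, 1.4% and 2.1%. Chromosomes 1, 8 and 4 stand out downwards and 3 and 18 upwards.

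On chromosome 1 the lower members were densest in its first stretch. In windows of 25 neighbouring genes, each with an average log2 CPM of 3 or more, the first 3 windows, chr1:4687934-37997893 (GRCm38), were lower in KO in both systems. The stretch was cut where medians stopped passing 0.25 downwards in both systems. It was thus picked from these same libraries, and its medians, shares and counts describe it and do not test it. The median log2 fold change of their 75 genes was -0.49 in culture and -0.41 in tumors, and 93.3% of the genes were lower in culture and 86.7% in tumors. Of 119 tested genes in that stretch, 43 were members lower in KO, 38 of them called, and 0 were higher. By library, relative to the other VC libraries of the same system, the median gene of the stretch was at -0.50, -0.51 and -0.51 in KO cultures and between -0.01 and 0.01 in VC cultures. It was at -0.45, -0.36 and -0.35 in KO tumors and at 0.12, 0.05 and -0.19 in VC tumors. The rest of chromosome 1 had medians of -0.07 and -0.09, and 40 of its 946 tested genes were lower members, 17 of them called. Rrs1, a ribosome assembly factor, had 77.9, 84.8 and 90.0 CPM in VC cultures, 47.7, 46.1 and 50.0 in KO cultures, 38.6, 34.2 and 27.5 in VC tumors and 19.9, 21.4 and 25.6 in KO tumors. Cox5b, a subunit of cytochrome c oxidase, fell by 0.63 ± 0.11 on the log2 scale, and Sema4c, a membrane semaphorin, by 1.04 ± 0.16. The densest group, at chr1:36068400-38129801, had 16 lower members among 33 tested genes, 13 of them called, among them, by position, Cox5b, Sema4c, Uggt1, the folding sensor of the endoplasmic reticulum, Actr1b, of dynactin, and Kansl3, of an acetyltransferase complex. Slc40a1, which rose, lies on chromosome 1 past the end of the stretch.

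**Figure D4:**
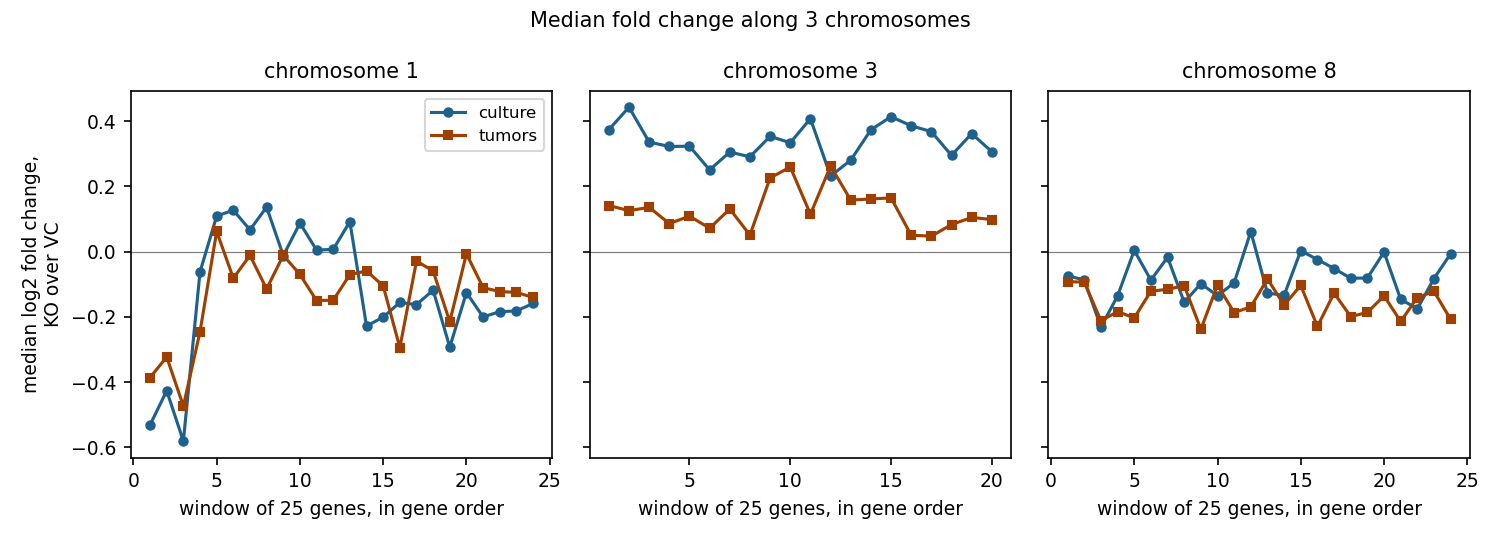
Points are medians of the log2 fold change (KO over VC) of 25 neighbouring genes, in gene order along chromosomes 1, 3 and 8, in culture (blue) and tumors (orange). The first 3 windows of chromosome 1 are low in both systems, chromosome 3 is above 0 along its whole length in both, and chromosome 8 is mostly below 0, more so in tumors.

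Over the genome, 414 windows were measured. Past 0.25 in size were 90 window medians in culture and 17 in tumors. In both systems together 4 windows passed it downwards, the 3 at the start of chromosome 1 and 1 on chromosome 6 (chr6:49073795-53700376), and 1 passed it upwards, chr3:90213695-94658872, while none passed it in opposite directions. The upward window holds S100 genes and ends just before Pogz. Whole-chromosome medians were less alike between the systems. Chromosome 3 stood at 0.33 in culture and 0.12 in tumors, chromosome 6 at -0.44 and -0.05, chromosome 4 at -0.27 and -0.08, chromosome 8 at -0.08 and -0.16, and chromosome 18 at 0.01 and 0.24. By library, the median gene of chromosome 3 was at 0.33, 0.31 and 0.31 in KO cultures. KO tumors had 0.17, 0.10 and 0.02 there, which overlapped the VC tumors' range of -0.11 to 0.15. On chromosome 18 the KO tumors, at 0.20, 0.21 and 0.24, lay above the VC tumors, which ran from -0.12 to 0.13, while the KO cultures lay between -0.02 and 0.00.

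**Figure D5:**
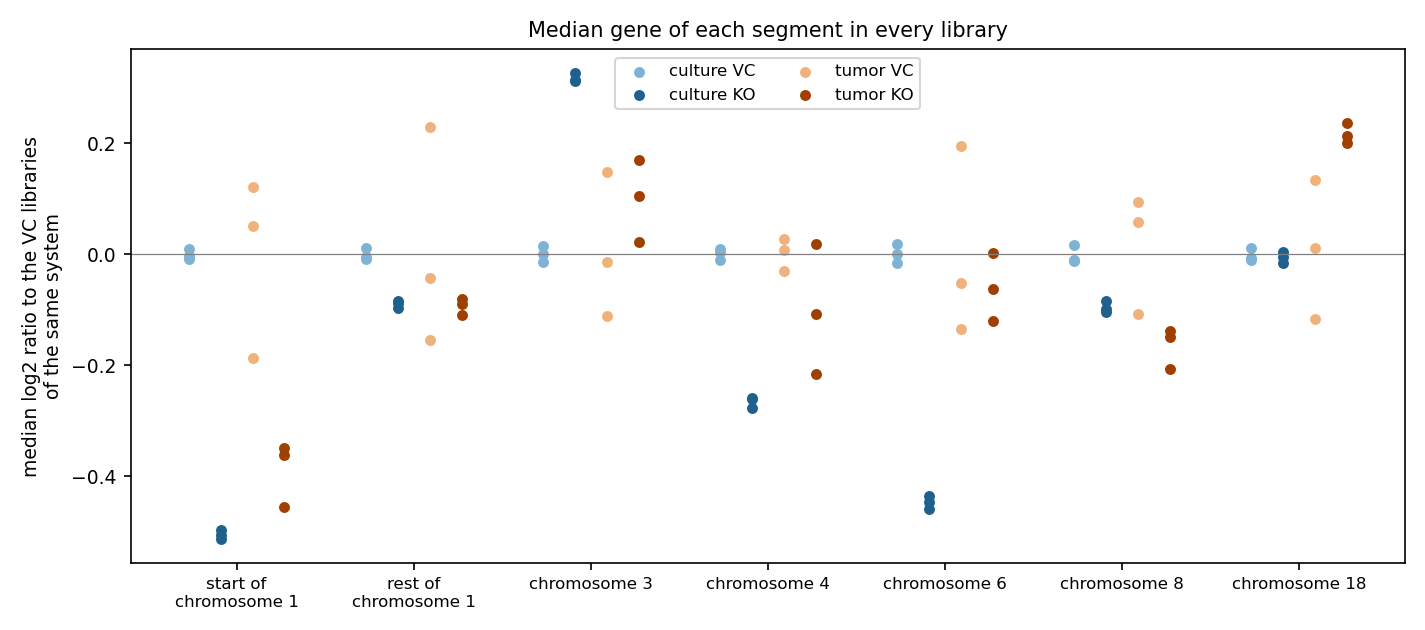
Points give, for each library, the median log2 ratio of a segment's genes to the mean of the VC libraries of the same system, the library itself left out. At the start of chromosome 1, a stretch picked for low KO values in these libraries, both KO groups lie below both VC groups without overlap. On chromosome 3 the tumor groups overlap, and on chromosome 18 the KO cultures lie at the level of the VC cultures.

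Members were counted again with each chromosome's median, estimated from these same libraries, taken out in each system. On shifted chromosomes that step lowers the counts in the direction of the shift largely by construction. It therefore does not show what moved the genes there. Left were 525 members and 122 called members, of which 328 and 96 were among the first 644 and 243. Lower members on chromosome 1 then numbered 45, on chromosome 8 10 and on chromosome 4 15, and higher members on chromosome 3 numbered 6 and on chromosome 18 2.

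Of 14 S100 genes measured, small calcium-binding proteins most of which lie in 1 cluster on chromosome 3, 4 were members, all higher, and 3 were called: S100a4, S100a14 and S100a13 (0.66 ± 0.14, adjusted p = 0.0336, edgeR). Over all genes tested, 1.4% were higher members and 0.809% were called higher. The median shared log2 fold change of the 14 was 0.40, against 0.00 over all genes. S100a10 was separated at 0.41 without being called (adjusted p = 0.0752). The called 3, without S100a10, lie among 8 higher members, 7 called, of 40 tested genes at chr3:89415472-90606045, with Il6ra, Tpm3 and Rab13, named for their position. S100a10 lies in another run of higher members, at chr3:93555080-96708562. With the chromosome median taken out, 2 S100 genes were members and 1, S100a4, was called.

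Epithelial and mesenchymal genes gave few calls. Of 32 epithelial genes, 2 fell, Tjp3 and Epcam, the cell adhesion molecule of epithelia, and 0 rose (background 1.34% and 0.809%). Epcam had 346, 318 and 306 CPM in VC cultures, 227, 229 and 226 in KO cultures, 672, 576 and 433 in VC tumors and 414, 376 and 383 in KO tumors, a shared log2 fold change of -0.51 ± 0.09 (adjusted p = 0.0185, edgeR). Elf3 and Trp63 were separated, Elf3 at -1.02 and Trp63 at 1.37, and neither was called. Of 19 genes of the epithelial-mesenchymal transition and mesenchyme, 3 rose, S100a4, Sparc and Zeb2, and 1 fell, Foxc2 (-0.83 ± 0.17). Foxc2, on chromosome 8, lost its call with chromosome medians taken out. Sparc (0.92) and Zeb2 (0.70) were no members and are named after their values were seen. The median of the epithelial list was -0.05 and that of the mesenchymal list 0.11.

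TGF-beta, which signals through SMAD proteins, acts on growth arrest, matrix and invasion in mammary tumors. Of 35 of its target genes, 1 was called, Col1a1 at 0.70, which is also a fibroblast gene and was not a member, and 0 were members. Of 30 ligands, receptors and SMADs, 0 were called and 0 were members. The median shared log2 fold change of the target list was 0.22, with 0.23 in culture and 0.03 in tumors. Of 45 interferon-stimulated genes 0 were called and 0 were members, with a list median of 0.74 in culture and -0.06 in tumors, although 36 of the 45 were called higher in culture, against 20.1% of all genes. Nor was any gene called of 42 for DNA replication, 36 for mitosis, 35 for homologous recombination and Fanconi repair or 31 Polycomb genes.

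Metabolic and stress lists held small sets of members; over all genes tested 0.809% were called higher and 1.34% lower, and 1.4% and 2.1% were members. In the cholesterol list of 34 genes, Dhcr7 and Nsdhl, enzymes of the last steps of synthesis, rose and 0 fell, and the list median was 0.35. Nsdhl had 61.7, 61.0 and 59.4 CPM in VC cultures, 84.7, 87.1 and 87.3 in KO cultures, 14.6, 11.8 and 12.2 in VC tumors and 15.1, 26.0 and 21.9 in KO tumors. Its shared log2 fold change was 0.60 ± 0.12 and that of Dhcr7 0.50 ± 0.09 (adjusted p of 0.0224 and 0.0185, edgeR), and Fads2 was separated at 0.50 without being called. Of 35 hypoxia and glycolysis genes 3 fell, Gapdh (-0.90), Car9 (-1.63) and P4ha2 (-0.58), none of them a member and all named after their values were seen. Vegfa and Egln1 were lower members without a call, and the list median was -0.26, with -0.45 in culture and -0.12 in tumors. Of 38 genes of ATF4 and the unfolded protein response 2 fell: Atf5, a transcription factor of that response and a member, by 0.58 ± 0.11, and Shmt2, a mitochondrial serine enzyme and no member, at -0.54. Slc7a3 was a lower member (-0.60) and Phgdh a higher one (0.21), both without a call. The median of that list was -0.16, with -0.41 in culture and 0.04 in tumors. Of 36 MYC target and nucleolar genes, Rrs1 and Polr1a, the large subunit of RNA polymerase I (-0.57 ± 0.09), fell. Of 36 oxidative phosphorylation genes Cox5b fell. With chromosome medians taken out, Polr1a, on chromosome 6, and Cox5b, on chromosome 1, were no longer called, while Rrs1 still was.

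In receptor and signaling lists the calls were few in number, and the same shares over all genes apply. In the list of EGF receptors, ligands and RAS feedback genes, with 26 measured, Egfr rose, the only member in that list, while Tgfa (-0.55), Dusp6 (-0.83) and Etv4 (-0.52) fell; the last 3 were no members and are named after their values were seen. Of 30 semaphorins, plexins and neuropilins, Sema3b and Sema4c fell and 0 rose. Sema4c had 17.9, 17.3 and 19.2 CPM in VC cultures, 10.5, 12.4 and 11.2 in KO cultures, 79.5, 144 and 126 in VC tumors and 49.4, 44.4 and 41.1 in KO tumors. Of 28 antigen presentation genes H2-Q7, a class I gene of the Qa-2 group, fell by 0.70 ± 0.12 (adjusted p = 0.0182, edgeR), and H2-Q6 was a lower member without a call; these genes are near copies, and reads may have been split between them. Of 30 p53 genes, Sesn1, a sestrin of the stress response, rose by 0.83 ± 0.17. Of 32 Hippo genes Lhfp rose by 0.64 ± 0.14, and Tead4, no member and named after its values were seen, fell by 0.62. Tead3 (-0.36) and Arhgef17 (-0.21) were lower members without a call. Lhfp, on chromosome 3, and Sesn1, on chromosome 10, lost their calls with chromosome medians taken out. Of 36 heterochromatin genes and POGZ partners 1, the DNA methyltransferase Dnmt3a, was called (0.54, no member, named after its values were seen), and Brd2 was a lower member without a call.

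Markers of host cells gave no called member among macrophages, neutrophils, dendritic cells, T and NK cells, B cells, fibroblasts or endothelial cells. Of the markers of those lists 1, Col1a1, was called. In the list of mammary luminal and milk genes Csn1s1 was called higher without being a member and Csn3 was a member without a call. The summed level of that list was 785 CPM in tumor KO_8459 and between 67.1 and 244 in the other tumors.

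The number of calls depended on depth and on single libraries. With every library thinned to the smallest total, 465 genes were members and 141 were called members. With 1 culture left out, whichever it was, the called members numbered between 46 and 65. Without tumor KO_8454 they numbered 816, without VC_8447 511, without KO_8459 410 and without VC_8451 393. Of the 243 called members, 42 were called members in all 12 such fits, 7 higher and 35 lower. Among the 40 named, these were Heg1, Egfr, S100a4, Slc40a1, Padi3, Hs3st1, Entpd3, Tjp3, Crispld2, Gpr97, Rrs1 and Sema4c. The call of 22 other named members was lost with any 1 of the 6 cultures left out, and that of 6 with some of them. The 5 calls lost with a tumor left out were those of Ubqln2 and Cpxm1 (VC_8448 or VC_8451), Ccl9 (VC_8447, VC_8448, VC_8451 or KO_8459), Lhfp (VC_8448) and Ddah2 (KO_8455).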

How the data were processed

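RNA was depleted of ribosomal RNA and sequenced in 12 libraries, 3 in each of 4 groups. The authors deposited raw counts per gene, 1 table for cultures and 1 for tumors. The genome mm10 and the tools featureCounts 1.4.4, STAR 2.3.0e and Trimmomatic 0.32 are named in the submitters' processing notes; settings, annotation release and use of strand are not given in the sources used here. The members and gene lists were chosen with earlier results of these data known.

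The tables were joined by Ensembl ID and analysed with edgeR 4.0.16 in R 4.3.3: filterByExpr over the 4 groups (count minimum 10, total 15), TMM scaling, and glmQLFit and glmQLFTest of the label with system as block, Benjamini-Hochberg adjusted over 18419 genes and called under 0.05. Separation was read on TMM-scaled log2 CPM with a prior count of 2, and ties were no separation. The SE was derived from the F statistic, as fold change on the log2 scale divided by its root. Cultures and tumors were also fitted apart, and the difference was tested as an interaction. The rule for named genes took Pogz, the called members with the 12 largest rises and 12 largest falls (mean log2 CPM of at least 1, no clone names), up to 4 called members of each list by smallest p, the 5 opposite genes with the smallest interaction p, and, among called genes, 2 on each side of the separation edge in each direction. Genes were placed by GENCODE M21 (GRCm38, the assembly of mm10), which held 37693 of 39017 IDs, and 322 could not be placed among genes tested.

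Alternatives, compared in the closing section, were upper-quartile and RLE scaling, a stricter filter and none, DESeq2 1.42.0, limma 3.58.1 voom with and without quality weights, an adjusted p of 0.01, glmTreat at a fold change of 1.2, a replicate block, thinning to 4712001 counts, 2 tumors left out (VC_8451 and KO_8459), small RNA genes left out, chromosome medians taken out, and each library left out. The fit was first tested on simulated data with known changes. Counts of replicate libraries differed beyond sampling noise, so none was counted as a copy. The depth limits precision most in VC tumors. Figures were drawn with matplotlib 3.10.9 and tables read with pandas 2.3.3 in Python 3.11.15.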

Additional observations from a re-analysis of the deposited data

Results flagged for a closer look

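In 9 named genes the label effect differed between tumors and culture by the interaction test of edgeR, with Benjamini-Hochberg adjustment over 18419 genes. The tumor-minus-culture log2 differences of the 5 genes with opposite effects were 5.81 for Marcks, 2.07 for Csgalnact1, 1.76 for Pdgfra, -1.68 for Casp12 and -4.26 for Vwa2, with adjusted p between 1.38e-06 and 0.00126. These 5 had been picked for a small interaction p, so their values describe and do not test. Among called members, which moved in the same direction in both systems, the difference was 1.81 for Tns4 (adjusted p = 0.000106), -1.62 for Egfr (0.00249), -3.34 for Ubqln2 (0.00255) and 1.56 for Gpr97 (0.0264). Groups of 3 libraries are too small for a check of single outlying libraries, and no deposited column was left unused.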

How the results depend on the processing

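The additive model called 396 genes, and 243 of the 644 members were called. Thinned to 1 depth, the counts were 208 and 141, with 4940 called in culture (7543 unthinned) and 184 for the interaction (377). Without tumors VC_8451 and KO_8459 they were 924 and 686, with 1621 members and 863 genes separated in opposite directions (327 before). Chromosome medians taken out gave 178 and 122. DESeq2 gave 1454 and 487, with 68 called in tumors and no adjusted p for 1130 genes; limma-voom gave 788 (called members 344), and with quality weights 7151 and 597. An adjusted p under 0.01 gave 47 and 36, and glmTreat 50 and 32. Calls in both separate fits were 0 and 0, which the 0 calls of the edgeR tumor fit fixed in advance. At an unadjusted p under 0.05 in both separate fits, 317 genes moved the same way, 244 of them members, and 168 opposite ways. RLE scaling gave 414 calls, 197 higher and 217 lower, against 149 and 247 with TMM. It gave 613 members, 302 higher and 311 lower, against 258 and 386 with TMM, and 496 of the 644 were kept. No scaling moved the median of all genes by more than 0.03 on the log2 scale.

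Whether the culture numbers 1, 2 and 3 pair samples is open. Same-numbered deviations correlated at -0.163, 0.023 and 0.0565, and different-numbered ones at between -0.220 and 0.217. These deviations were taken from means of 3 libraries, so the correlations cannot settle it. With the replicate block the calls numbered 13 and 11. Leaving out 1 library gave 57 to 1324 calls, 705 to 1470 members, 46 to 816 called members, 362 to 1276 opposite genes and 147 to 1588 interaction calls. Fewer tumors make complete separation easier to meet by construction; for the other shifts the cause was not tested. No named gene changed direction in any alternative. A gene that is no member is not shown to be unaffected.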
